A study of Mus musculus with 12 samples.

Results

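The 9 genes described here encode the lipases that break down stored fat inside adipocytes, and the proteins that switch them on or off. They were chosen by name (Pnpla2, Abhd5, G0s2, Lipe, Mgll, Ces1d, Lipa, Pnpla3 and Pnpla5), and all 9 are among the 23163 gene symbols counted. Total RNA sequencing covered 2 fat depots, brown (BAT) and subcutaneous white (sWAT), of male wild-type C57Bl/6 mice aged 8 to 12 weeks. The groups are BAT after 72 hours in the cold at 4 °C, BAT after 72 hours at thermoneutrality (30 °C), sWAT after 72 hours at 4 °C and sWAT after 72 hours at 30 °C, with 3 libraries in each of the 4 groups. The labels give 20 mice, 10 at each temperature, but not whether a library holds RNA of 1 animal or of a pool, so the p-values measure the spread between these samples, which may be technical. The titles number the libraries of each group by experiment, 1 to 3, and do not say what same-numbered libraries share. The labels name no transgene or deletion.

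Stored triglyceride is taken apart in steps, each of which frees a fatty acid. Pnpla2 encodes adipose triglyceride lipase, which takes the first step at the surface of the lipid droplet. Abhd5 encodes its coactivator CGI-58, and G0s2 encodes a small protein that inhibits it. Lipe encodes hormone-sensitive lipase, the main diglyceride lipase, and Mgll encodes the monoglyceride lipase that releases glycerol. Ces1d encodes a carboxylesterase with triglyceride hydrolase activity, and Lipa encodes the acid lipase of the lysosome, which degrades lipid delivered there by autophagy or endocytosis. Pnpla3 and Pnpla5 encode patatin-like relatives of Pnpla2. In brown fat the freed fatty acids are fuel for heat production and activate the uncoupling protein of the mitochondria, and noradrenaline released in the cold drives the pathway.

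Promoter sequence is shown for the members that rose in the cold in at least one tissue, since they are the genes the results turn on. Sequences are from RefSeq, build GRCm38.p6, and each is the 250 bases before the annotated start of transcription, 5′ to 3′ on the gene's own strand. RefSeq windows were matched for 8 of the 9 members, and Ces1d was not matched. Capitals mark matches to any of 8 motifs searched on both strands.
Abhd5, chr9:122351366-122351615, plus strand: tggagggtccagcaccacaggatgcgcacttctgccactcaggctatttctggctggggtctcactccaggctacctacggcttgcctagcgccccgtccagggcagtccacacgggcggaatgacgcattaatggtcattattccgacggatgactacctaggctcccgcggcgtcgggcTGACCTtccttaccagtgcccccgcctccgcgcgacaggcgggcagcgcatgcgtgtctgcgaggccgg
Mgll, chr6:88724162-88724411, plus strand: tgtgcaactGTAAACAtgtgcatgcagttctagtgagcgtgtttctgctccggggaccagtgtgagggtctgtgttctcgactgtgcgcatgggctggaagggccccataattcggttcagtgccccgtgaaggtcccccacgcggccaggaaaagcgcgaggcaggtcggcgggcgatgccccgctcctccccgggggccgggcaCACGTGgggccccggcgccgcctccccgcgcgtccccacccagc
Lipa, chr19:34527475-34527724, minus strand: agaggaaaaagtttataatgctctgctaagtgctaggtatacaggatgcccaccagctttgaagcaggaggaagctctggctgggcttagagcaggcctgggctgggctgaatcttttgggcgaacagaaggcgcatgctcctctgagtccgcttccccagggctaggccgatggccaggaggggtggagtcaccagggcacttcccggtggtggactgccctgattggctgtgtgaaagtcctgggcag
Pnpla3, chr15:84167566-84167815, plus strand: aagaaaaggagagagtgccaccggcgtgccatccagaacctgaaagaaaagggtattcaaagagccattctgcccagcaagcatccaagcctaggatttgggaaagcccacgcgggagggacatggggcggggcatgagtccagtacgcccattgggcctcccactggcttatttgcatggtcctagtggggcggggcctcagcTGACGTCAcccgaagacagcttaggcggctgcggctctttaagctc

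In Abhd5 the capitals mark TGACCT, the reverse complement of the nuclear receptor core site AGGTCA, which 16.26% of all 32851 windows hold (250 bases before to 50 after a start, 300 in all). In Mgll they mark GTAAACA, the reverse complement of the FOXO motif TGTTTAC (3.65% of windows), and the E-box CACGTG (7.15% of windows). In Pnpla3 they mark the palindromic cyclic AMP response element TGACGTCA (1.79% of windows), whose first base lies 46 bases before the start. None of the 8 motifs was found in the Lipa window, or in another RefSeq window of Mgll that is not shown (chr6:88724454-88724753). The CLEAR core TCACGTGA, which contains the E-box and is known from promoters of lysosomal genes, was in 0.97% of windows and in no member's. No member's window held a PPAR response element, 2 copies of that core site in tandem (0.04% of windows), the C/EBP motif TTGCNNAA (10.8%) or the SREBP motif TCACCCCAC (0.55%). The windows of Lipe held an E-box and a FOXO motif, that of Pnpla5 held an E-box, and those of Pnpla2 and G0s2 held none of the 8. A match describes these letters only.

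Expression is given in CPM, the count of a gene scaled to the library's total times its TMM factor, and as mean ± SD of 3 libraries. A gene is called higher or lower at an adjusted p under 0.05, where p comes from the quasi-likelihood test of edgeR and is adjusted over all genes tested by the Benjamini-Hochberg method. A log2 fold change is positive where cold, or BAT, is higher, and is given ± its standard error (SE). Totals ran from 27117934 to 56243016 counts per library. The sWAT thermoneutral libraries stood apart from the rest before any gene was compared. The 13 mitochondrially encoded genes took 0.181% to 0.307% of their counts, against 17.6% to 53.8% in the other 9 libraries, and 84 ribosomal protein genes took 7.18% to 8.14%, against 0.338% to 1.85%. Log2 CPM also rose with a gene's GC content in these libraries, by 0.80 to 1.37 per 10 percentage points, where the slopes of the others lay between −0.74 and 0.23. No other sWAT libraries were made at 30 °C, so temperature and whatever set these libraries apart cannot be told apart in sWAT, and the cold responses of the members tested in sWAT are also given with a correction for GC content per library. In BAT, cold library 3 stood apart, with a mitochondrial share of 53.8% (20.0% and 24.4% in the other cold libraries) and the steepest negative GC slope, −0.74.

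Summed brown adipocyte markers were higher in BAT than in sWAT at each temperature, and summed white adipocyte markers were lower. The highest sWAT library in the cold nevertheless had a higher brown sum than any BAT library at 30 °C. Of 11 brown markers tested, 9 were called higher in BAT at 30 °C, against 29.9% of all genes tested. In the cold 1 of the 11 was called higher, against 1.19% of all genes tested. The median log2 difference of the brown markers was 3.39 at 30 °C and 1.00 in the cold. Of 7 white markers tested, 6 were called lower in BAT at each temperature. Over all genes tested, 28.8% were called lower at 30 °C and 11.1% in the cold. Summed over 11 brown adipocyte markers, levels were 26418 to 29950 CPM in BAT in the cold and 6475 to 7140 CPM in BAT at 30 °C, and 4715 to 17875 CPM in sWAT in the cold and 274 to 1200 CPM in sWAT at 30 °C. White adipocyte markers (7 genes) summed to 45.7 to 122 CPM in BAT in the cold and 129 to 238 CPM in BAT at 30 °C, and to 522 to 745 CPM in sWAT in the cold and 712 to 895 CPM in sWAT at 30 °C. General adipocyte markers (10 genes) summed to 16605 to 22122 CPM in BAT in the cold and 14610 to 15779 CPM in BAT at 30 °C, and to 18254 to 27186 CPM in sWAT in the cold and 10984 to 16267 CPM in sWAT at 30 °C. In bulk tissue, fewer cells of a type and less RNA per cell cannot be told apart.

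By group mean, Pnpla2 was the most abundant of the 9 genes per length in every group. Per kilobase of exon (CPM per kb), it averaged 1476 ± 508 in BAT in the cold, 848 ± 166 in BAT at 30 °C, 985 ± 310 in sWAT in the cold and 601 ± 170 in sWAT at 30 °C, which placed it 29th, 42nd, 39th and 48th among 22240 genes with a known length. Its coactivator stood far below it on this scale, with Abhd5 at 29.1 ± 2.2 CPM per kb in BAT in the cold and 10.2 ± 0.5 in BAT at 30 °C. G0s2, Ces1d, Lipe, Mgll and Pnpla3 lay between, at 69.1 to 677 CPM per kb in the group means. Lipa ranged widely between groups, with 41.4 ± 15.3 CPM per kb in BAT in the cold and 2.45 ± 0.87 in sWAT at 30 °C. Of the summed CPM per kb of the 9 genes, Pnpla2 held 40.6% to 48.7% in BAT in the cold and 30.7% to 39.0% in BAT at 30 °C, while G0s2 held 4.95% to 17.5% in BAT in the cold and 20.7% to 30.9% in BAT at 30 °C. These are levels, and the shares have no test.

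**Figure D1:**
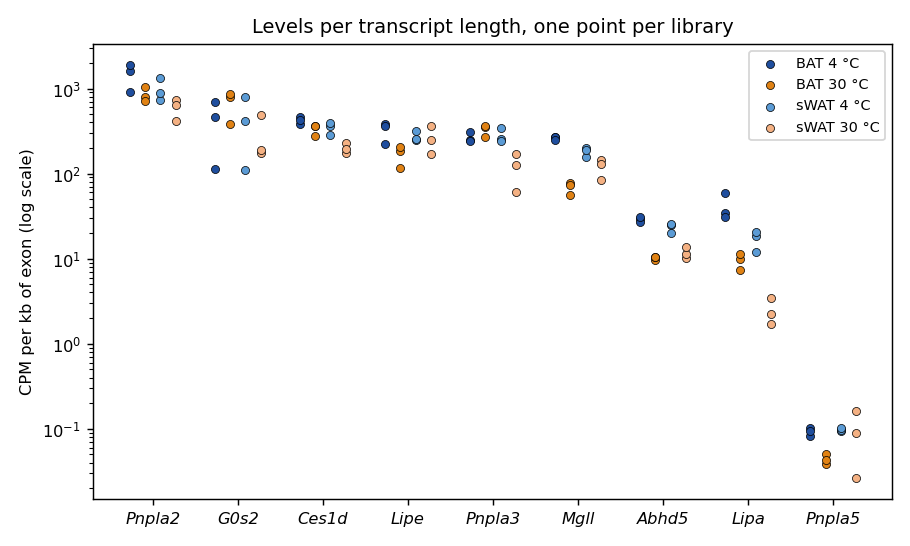
Level of each member in each library in CPM per kilobase of exon, on a log axis, with 1 point per library and the 4 groups in separate colours. Pnpla2 has the highest group means, 601 to 1476, although G0s2 is level with it in BAT thermoneutral library 1, and Pnpla5 lies far below the other 8 genes.

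In the cold, BAT carried more RNA of the coactivator of the first lipase, of the last enzyme of the pathway and of the lysosomal lipase. Mgll rose about 4-fold, Abhd5 about 3-fold and the lysosomal Lipa about 4.5-fold, while the 2 best known triglyceride and diglyceride lipases, Pnpla2 and Lipe, were higher by log2 fold changes of 0.85 and 1.00 that did not pass the test over all libraries. The inhibitor G0s2 and Pnpla3 had values below 0 that did not pass. Of the 9 members, 8 passed the filter on low counts, and 3 of these were called higher and 0 lower, where 12.2% of all 14612 genes tested were called, 6.82% higher and 5.34% lower. At an unadjusted p under 0.05 there were 5. The median log2 fold change was 0.93 over the 8 members tested and −0.04 over all genes tested. Of the members tested, Abhd5, Lipe, Mgll, Ces1d and Lipa had every cold library above every library at 30 °C. The groups did not overlap for 35.7% of all genes tested, 16% higher and 19.7% lower. Pnpla5, which was not tested, did not overlap either, at a few counts per library.

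**Figure D2:**
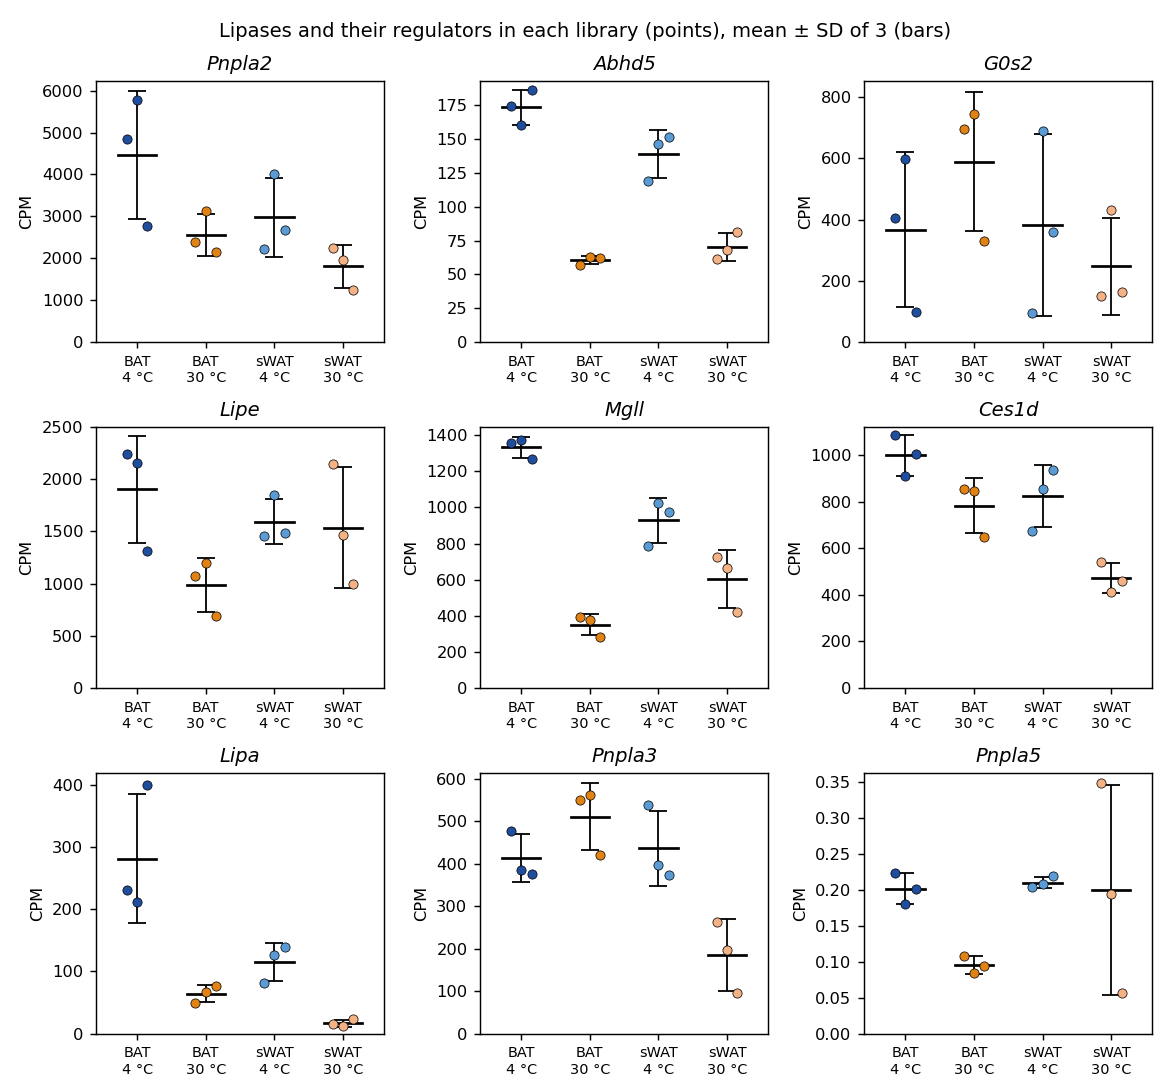
CPM of each of the 9 members in each library (points) with the mean and SD of the 3 libraries of a group (bars), on axes that start at 0. Abhd5, Mgll, Ces1d and Lipa separate the temperatures in both tissues, while Pnpla2 and G0s2 do so in neither.

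Pnpla2 (chr7:141455198-141460743, plus strand, GRCm38, ENSMUSG00000025509.15) had 4839, 5766 and 2772 CPM in BAT in the cold, against 2398, 3122 and 2158 CPM in BAT at 30 °C. Cold library 3 was the low one and lay below the highest library at 30 °C, so the groups overlapped. The log2 fold change was 0.85 ± 0.36 (95% interval 0.03 to 1.68, adjusted p = 0.157). Without cold library 3 it was 1.11 and was called (adjusted p = 0.0457). Without library 3 of both BAT groups it was 1.00 and was called (adjusted p = 0.00648). That fit called 3265 genes higher and 3244 lower of 14566 tested, against 996 and 781 of 14612 in the main fit. The adjusted p of Pnpla2 ran from 0.00648 to 0.46 over 16 alternatives.

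Abhd5 (chr9:122351608-122381524, plus strand, ENSMUSG00000032540.16) had 174, 160 and 186 CPM in BAT in the cold, against 57.2, 62.9 and 62.3 CPM in BAT at 30 °C. The 2 groups were far apart and tight. Abhd5 rose by 1.57 ± 0.24 on the log2 scale (95% interval 1.02 to 2.11, adjusted p = 0.00716), and under the 16 alternatives its adjusted p was at most 0.0437.

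G0s2 (chr1:193272161-193273217, minus strand, ENSMUSG00000009633.3) had 404, 599 and 97.5 CPM in BAT in the cold, against 695, 745 and 330.2 CPM in BAT at 30 °C. It varied more between libraries of a group than any other tested member, 6.14-fold between the cold libraries, and library 3 was the lowest in both groups. Its log2 fold change of −0.63 ± 0.60 (95% interval −1.99 to 0.73, adjusted p = 0.517) did not pass the test, and it was called in 1 of 16 alternatives (adjusted p 0.0399 to 0.786 over all 16).

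Lipe (chr7:25379527-25398710, minus strand, ENSMUSG00000003123.15) had 2246, 2153 and 1316 CPM in BAT in the cold, against 1072, 1197 and 694 CPM in BAT at 30 °C. Every cold library was above every library at 30 °C, with library 3 the lowest of both groups. The log2 fold change was 1.00 ± 0.34 (95% interval 0.23 to 1.78, adjusted p = 0.0911). It was called in 6 of 16 alternatives (adjusted p 0.00304 to 0.278 over all 16). Among them were the fits without cold library 3 (1.21, adjusted p = 0.0376) and without library 3 of both groups (1.01, adjusted p = 0.00304). The latter called 3265 genes higher and 3244 lower, against 996 and 781 in the main fit. GC correction (0.90, adjusted p = 0.0369) and DESeq2 (1.02, adjusted p = 0.0261) also called Lipe.

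Mgll (chr6:88724412-88828360, plus strand, ENSMUSG00000033174.17) had 1358, 1375 and 1268 CPM in BAT in the cold, against 393, 375 and 284 CPM in BAT at 30 °C. The cold libraries differed among themselves by 1.08-fold, the least of the 8 tested members. Mgll rose by 1.98 ± 0.27 on the log2 scale (95% interval 1.36 to 2.61, adjusted p = 0.00469), more than 97.8% of all genes tested. Its adjusted p was at most 0.0359 under the alternatives.

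Lipa (chr19:34492318-34527474, minus strand, ENSMUSG00000024781.16) had 231, 212 and 399.9 CPM in BAT in the cold, against 50.02, 67.0 and 76.1 CPM in BAT at 30 °C. All cold libraries were above all at 30 °C, and cold library 3 was the highest, unlike for Pnpla2, Lipe and G0s2. Lipa rose by 2.18 ± 0.35 on the log2 scale (95% interval 1.39 to 2.97, adjusted p = 0.00799), and by 1.97 without library 3 of both groups. Macrophages also carry Lipa, and their part in the result was not tested. In BAT 14 macrophage markers summed to 124 to 140 CPM in the cold and 135 to 204 CPM at 30 °C, with 0 of 14 called.

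The remaining members moved little in BAT. Ces1d (chr8:93166068-93197838, minus strand, ENSMUSG00000056973.6) had 1086, 909 and 1004 CPM in BAT in the cold, against 855, 848 and 647 CPM in BAT at 30 °C, with no overlap but a log2 fold change of 0.41 ± 0.27 (95% interval −0.19 to 1.01, adjusted p = 0.338). Pnpla3 (chr15:84167837-84187236, plus strand, ENSMUSG00000041653.5) had 478, 384 and 376 CPM in BAT in the cold, against 550.01, 562 and 419.5 CPM in BAT at 30 °C, which overlapped, with a log2 fold change of −0.25 ± 0.27 (95% interval −0.86 to 0.36, adjusted p = 0.570). Pnpla5 (chr15:84112356-84123175, minus strand, ENSMUSG00000018868.4) had 5, 6 and 6 counts in BAT in the cold, against 3, 3 and 4 counts in BAT at 30 °C. These are sums of 17 counts (exact Poisson 95% interval 9.90 to 27.2) and 10 counts (4.80 to 18.4), intervals that overlap and cover counting error only. At this depth no difference in Pnpla5 was detectable, and it did not pass the filter for the test.

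In sWAT, the cold was accompanied by higher RNA of Lipa, Abhd5 and Pnpla3. Lipa rose about 6.9-fold, Pnpla3 2.4-fold and Abhd5 2.0-fold, while Lipe had nearly the same mean at both temperatures. Of the 8 members tested, 3 were called higher and 0 lower, where 49.2% of all 15731 genes tested were called, 25.1% higher and 24.1% lower. There were 4 members at an unadjusted p under 0.05. The median log2 fold change was 0.75 over the members tested and 0.00 over all genes tested. In 5 of the 8 members tested every cold library lay above every library at 30 °C. The groups did not overlap for 60.6% of all genes tested, 30.1% higher and 30.5% lower.

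Lipa had 81.5, 126 and 139.7 CPM in sWAT in the cold, against 15.03, 11.7 and 23.1 CPM in sWAT at 30 °C. The groups lay well apart. Lipa rose by 2.79 ± 0.35 on the log2 scale (95% interval 2.00 to 3.58, adjusted p = 0.000560), and by 1.84 with GC correction (adjusted p = 0.00404), the highest adjusted p over 15 alternatives being 0.0165. At 42.2% its exons had the lowest GC content of the 9 genes. Macrophage markers moved the other way in sWAT, with sums of 312 to 469 CPM in the cold and 1002 to 1603 CPM at 30 °C and 8 of 14 called lower and 1 higher, and their part in the result was not tested.

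Abhd5 had 119, 146 and 152 CPM in sWAT in the cold, against 61.1, 68.3 and 81.1 CPM in sWAT at 30 °C. The groups did not overlap, and Abhd5 rose by 0.98 ± 0.25 on the log2 scale (95% interval 0.42 to 1.54, adjusted p = 0.0106). With GC correction the log2 fold change was 0.57 and the call was lost (adjusted p = 0.0713, in a range of 0.000902 to 0.125 over the alternatives). Its exons had the next lowest GC content, 45.7%.

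Pnpla3 had 537, 396 and 374 CPM in sWAT in the cold, against 263, 197 and 94.7 CPM in sWAT at 30 °C. Every cold library was above every library at 30 °C, and library 1 was the highest of both groups. Pnpla3 rose by 1.24 ± 0.41 on the log2 scale (95% interval 0.31 to 2.17, adjusted p = 0.0337). The call rested on single libraries: it was lost without cold library 2 (1.33, adjusted p = 0.0511), without cold library 3 (1.35, adjusted p = 0.0591), without thermoneutral library 2 (1.26, adjusted p = 0.0928) and without thermoneutral library 3 (0.93, adjusted p = 0.0760). With GC correction the log2 fold change was 2.33 (adjusted p = 0.00282), and the exons of Pnpla3 had the highest GC content, 58.4%.

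The lipases of the main pathway did not pass the test in sWAT. Pnpla2 had 2222, 4021 and 2677 CPM in sWAT in the cold, against 2243, 1954 and 1248 CPM in sWAT at 30 °C, and the groups touched, with cold library 1 just below the highest at 30 °C. Its log2 fold change was 0.70 ± 0.40 (95% interval −0.20 to 1.60, adjusted p = 0.170), and 1.55 with GC correction, where it was called (adjusted p = 0.00599, in a range of 0.00599 to 0.433). Lipe had 1452, 1845 and 1486 CPM in sWAT in the cold, against 2148, 1464 and 1001 CPM in sWAT at 30 °C, which enclosed the cold libraries. Its log2 fold change was 0.05 ± 0.38 (95% interval −0.83 to 0.92, adjusted p = 0.931), its sign turned under upper quartile scaling (−0.01), and it was 0.81 with GC correction (adjusted p = 0.0677).

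Mgll had 788, 1025 and 973 CPM in sWAT in the cold, against 728, 663 and 423 CPM in sWAT at 30 °C. The groups did not overlap, but the log2 fold change of 0.61 ± 0.34 (95% interval −0.15 to 1.38, adjusted p = 0.160) did not pass, and with GC correction it was 1.33 and was called (adjusted p = 0.00697, in a range of 0.00697 to 0.378). Ces1d had 676, 857 and 937 CPM in sWAT in the cold, against 543, 414 and 459 CPM in sWAT at 30 °C. These did not overlap either, with a log2 fold change of 0.80 ± 0.31 (95% interval 0.09 to 1.504, adjusted p = 0.0611, in a range of 0.0115 to 0.200 over alternatives, 4 of which called it) and of 0.76 with GC correction (adjusted p = 0.0641). G0s2 had 95.6, 689 and 360.3 CPM in sWAT in the cold, against 151, 431 and 163 CPM in sWAT at 30 °C, a spread of 7.20-fold between the cold libraries. Its log2 fold change was 0.61 ± 0.66 (95% interval −0.89 to 2.11, adjusted p = 0.470), 1.30 with GC correction (adjusted p = 0.122) and −0.10 without cold library 2. Pnpla5 had 11, 7 and 7 counts in sWAT in the cold, against 15, 8 and 3 counts in sWAT at 30 °C, sums of 25 (16.2 to 36.9) and 26 (17.0 to 38.1), and was not tested.

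**Figure D3:**
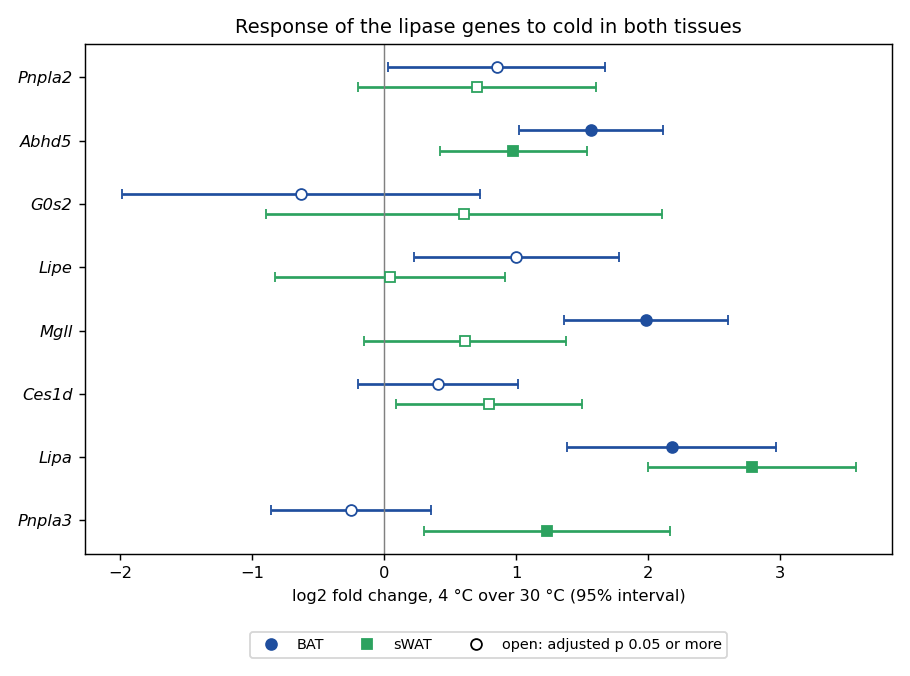
Log2 fold change of cold (4 °C) over thermoneutrality (30 °C) with its 95% interval for the 8 members tested, BAT as circles and sWAT as squares, filled where the adjusted p is under 0.05. Abhd5 and Lipa are filled in both tissues, Mgll in BAT and Pnpla3 in sWAT.

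**Figure D4:**
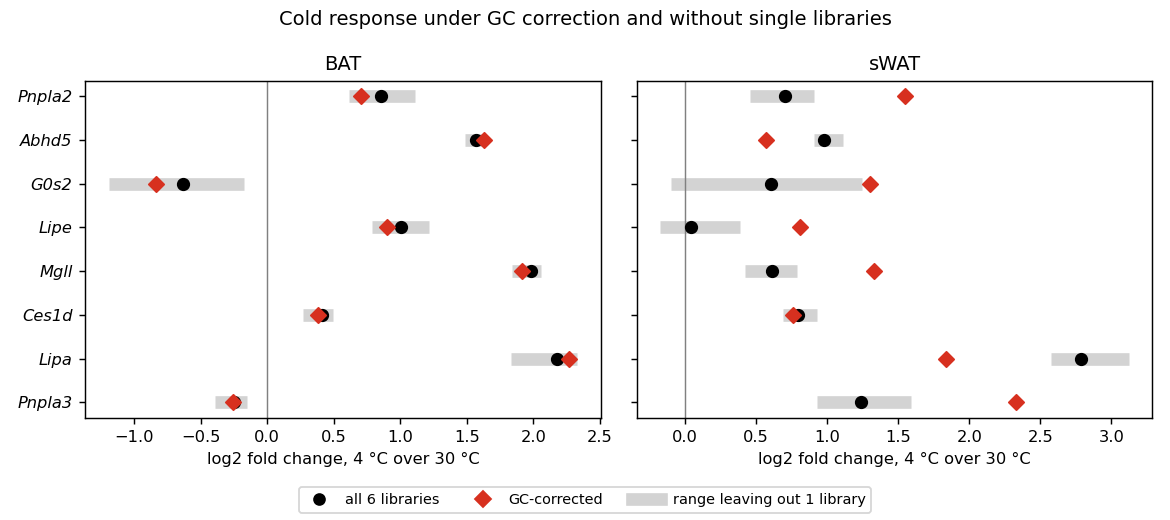
Log2 fold change of cold over thermoneutrality for the 8 members tested, with all 6 libraries of a tissue (black), after GC correction (red) and over the fits that leave out 1 library (grey bars). After correction Abhd5, Mgll and Lipa stand at 1.63, 1.92 and 2.27 in BAT, while in sWAT Pnpla2 moves to 1.55, Pnpla3 to 2.33 and Lipa to 1.84.

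Skeletal muscle markers differed between the sWAT groups too, with 14 genes summing to 9535 to 25237 CPM in the cold and 161 to 6009 CPM at 30 °C and 9 of 14 called higher. Fibroblast and progenitor markers (10 genes) summed to 1061 to 1638 CPM in the cold and 3301 to 5708 CPM at 30 °C. Of these 4 were called lower and 0 higher, but the median log2 fold change over the 10 was 0.18. Lymphocyte markers (14 genes) summed to 387 to 1379 CPM in the cold and 1133 to 1673 CPM at 30 °C, with 6 called lower. Endothelial markers (8 genes) summed to 474 to 633 CPM in the cold and 370 to 529 CPM at 30 °C, with 4 called higher and 1 lower. Of all genes tested in sWAT, 25.1% were called higher and 24.1% lower. The part of the marker differences in the sWAT results was not tested. In BAT, where 5.34% of all genes tested were called lower, 2 of 14 muscle markers were called lower. They summed to 5305 to 8083 CPM in the cold and 4371 to 13821 CPM at 30 °C. Lymphocyte markers summed to 23.9 to 30.1 CPM in BAT in the cold and 17.0 to 26.1 CPM in BAT at 30 °C, with 1 of the 13 tested called lower and 11 of the 14 under 1 CPM in every cold library.

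The balance of inhibitor, coactivator and lipase was read within each library, as a ratio of CPM per kb, where scaling between libraries cancels, and 7 such ratios were computed. G0s2 over Pnpla2 was 0.290, 0.360 and 0.122 in BAT in the cold, against 1.00, 0.827 and 0.531 in BAT at 30 °C. The groups did not overlap, whereas neither gene alone separated them. In sWAT the same ratio was 0.149, 0.594 and 0.467 in the cold, against 0.233, 0.765 and 0.453 at 30 °C, with wide overlap. Abhd5 over Pnpla2 was 0.0182, 0.0141 and 0.0340 in BAT in the cold, against 0.0121, 0.0102 and 0.0147 in BAT at 30 °C, which overlapped narrowly. In sWAT it was 0.0271, 0.0184 and 0.0287 in the cold, against 0.0138, 0.0177 and 0.0329 at 30 °C. The last step relative to the one before it, Mgll over Lipe, was 0.701, 0.741 and 1.12 in BAT in the cold, against 0.425, 0.363 and 0.475 in BAT at 30 °C. In sWAT it was 0.629, 0.644 and 0.759 in the cold, against 0.393, 0.525 and 0.490 at 30 °C. Mgll over Lipe was thus higher in every cold library in both tissues. Pnpla3 over Pnpla2 was 0.193, 0.130 and 0.264 in BAT in the cold, against 0.447, 0.351 and 0.379 in BAT at 30 °C, with no overlap. Mgll over Pnpla2 and Lipa over Pnpla2 did not overlap in BAT either, at 0.142 to 0.272 and 0.0164 to 0.0643 in the cold, against 0.0714 to 0.0974 and 0.00929 to 0.0157 at 30 °C, and Lipe over Pnpla2 overlapped. In sWAT, Lipa over Pnpla2 was 0.0140 to 0.0232 in the cold, against 0.00267 to 0.00826 at 30 °C, and Lipe over Pnpla2 was 0.235 to 0.335 in the cold, against 0.385 to 0.491 at 30 °C, both without overlap, while Mgll and Pnpla3 over Pnpla2 overlapped. A difference in GC slope between libraries does not cancel in a ratio, and the ratios were not corrected for it. Exons of Lipa had 42.2% GC and those of Pnpla2 57.0%. In sWAT their log2 fold changes were 2.79 and 0.70 uncorrected, and 1.84 and 1.55 with GC correction. The ratios were picked after the values were known and carry no test.

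**Figure D5:**
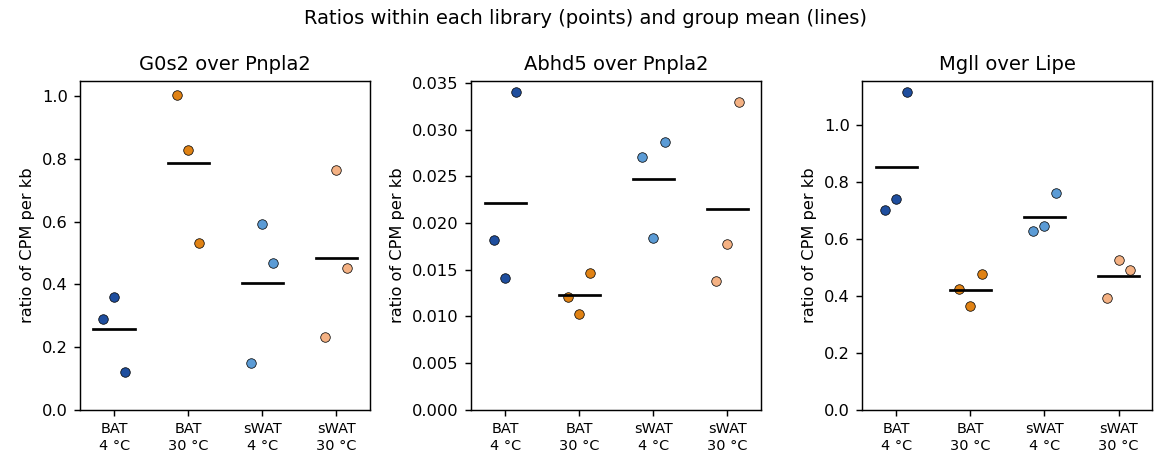
Ratios of CPM per kilobase within each library (points) and group means (lines) for G0s2 over Pnpla2, Abhd5 over Pnpla2 and Mgll over Lipe, on axes that start at 0. Mgll over Lipe is at least 0.629 in every cold library and at most 0.525 in every library at 30 °C.

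Whether the response to cold differed between the tissues was tested as the log2 response in sWAT minus that in BAT, over all 12 libraries. Mgll responded less in sWAT, by a difference of −1.31 ± 0.42 (95% interval −2.21 to −0.41, adjusted p = 0.0362), and Pnpla3 responded more, by 1.54 ± 0.50 (95% interval 0.48 to 2.61, adjusted p = 0.0367). These 2 of 8 members compare with 25.1% of all 16365 genes tested, 17.3% higher and 7.85% lower. The median over all genes was 0.12, and with RLE scaling it shifted by −0.15. Neither call was firm: that of Mgll was lost with GC correction (−0.54, adjusted p = 0.295), without filter (−1.32, adjusted p = 0.0532) without library 3 of both BAT groups (−1.20, adjusted p = 0.067) and without BAT thermoneutral library 3, sWAT cold library 3 or sWAT thermoneutral library 1 or 2 (adjusted p 0.0735 to 0.0770, in a range of 0.000549 to 0.354 over all 21 alternatives). That of Pnpla3 was lost with RLE scaling (1.39, adjusted p = 0.0551) and on leaving out any of 10 of the 12 libraries (adjusted p 0.0549 to 0.127), and it was 2.64 with GC correction (adjusted p = 0.00295). For Lipa the difference was 0.68 ± 0.48 (95% interval −0.36 to 1.71, adjusted p = 0.315), and for Abhd5 −0.53 ± 0.31 (95% interval −1.19 to 0.14, adjusted p = 0.221). With GC correction that of Abhd5 was −0.99 and was called (adjusted p = 0.0291, in a range of 0.0291 to 0.370 over 21 alternatives). Lipe (−0.90 ± 0.52), Pnpla2 (−0.09 ± 0.55), G0s2 (1.30 ± 1.00) and Ces1d (0.45 ± 0.39) had adjusted p of 0.220 to 0.927, and their intervals leave room for differences of over 1 in either direction for Pnpla2 and of up to −2.02 for Lipe.

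At thermoneutrality BAT carried more Lipa, Pnpla3 and Ces1d than sWAT and less Mgll. The sWAT libraries here are those that stood apart, so tissue and whatever set them apart cannot be told apart. Of the 8 members tested, 3 were called higher in BAT and 1 lower, where 58.7% of all genes tested were called, 29.9% higher and 28.8% lower. These 4 also did not overlap between the tissues, as was so for 66% of all genes tested, 32.3% higher and 33.6% lower. Lipa averaged 64.4 ± 13.2 CPM in BAT and 16.6 ± 5.9 CPM in sWAT (SD, n = 3 each), a log2 difference of 1.95 ± 0.35 (adjusted p = 0.000428 by edgeR) and 0.85 with GC correction (adjusted p = 0.0237). Pnpla3 averaged 510.5 ± 79.0 CPM in BAT and 185 ± 85 CPM in sWAT, a difference of 1.46 ± 0.36 (adjusted p = 0.00333), or 2.55 with GC correction. Ces1d averaged 783 ± 118 CPM in BAT and 472 ± 66 CPM in sWAT, a difference of 0.73 ± 0.28 (adjusted p = 0.0360), which was lost in 10 of 21 alternatives (adjusted p 0.0084 to 0.115 over all). Mgll averaged 351 ± 58 CPM in BAT and 605 ± 161 CPM in sWAT, a difference of −0.79 ± 0.30 (adjusted p = 0.0354), which was lost in 6 of 21 alternatives and changed sign in another 2 (adjusted p 0.00189 to 0.971 over all). With GC correction the difference of Mgll turned to 0.01 (adjusted p = 0.970), and Pnpla2 (1.47), G0s2 (2.10) and Abhd5 (−0.68) were called, against uncorrected differences of 0.50 ± 0.39, 1.25 ± 0.72 and −0.21 ± 0.22. Lipe, at 988 ± 262 CPM in BAT and 1538 ± 577 CPM in sWAT, differed by −0.64 ± 0.37 (adjusted p = 0.152) and by 0.21 with GC correction.

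Between the tissues in the cold 1 of 8 members was called, Lipa. Of all genes tested 12.3% were called, 1.19% higher in BAT and 11.1% lower. At thermoneutrality 58.7% were called, in a comparison that rests on the sWAT libraries that stood apart. Whether the tissues were closer in the cold therefore cannot be told from these counts. Lipa averaged 281 ± 103.5 CPM in BAT in the cold and 116 ± 31 CPM in sWAT in the cold, a log2 difference of 1.28 ± 0.34 (adjusted p = 0.0265 by edgeR). It was no longer called without BAT cold library 3 (1.10, adjusted p = 0.0528), without sWAT cold library 1 (1.29, adjusted p = 0.0688) and without library 3 of both BAT groups (0.93, adjusted p = 0.0827, in a range of 0.00264 to 0.0827). Mgll, at 1334 ± 58 CPM in BAT and 929 ± 125 CPM in sWAT, and Abhd5, at 173 ± 13 CPM in BAT and 139 ± 18 CPM in sWAT, did not overlap between the tissues but were not called, with log2 differences of 0.52 ± 0.30 (adjusted p = 0.293) and 0.32 ± 0.22 (adjusted p = 0.391). With Lipa they are 3 members without overlap, as was so for 35.2% of all genes tested, 13.4% higher and 21.8% lower. For Pnpla2 (0.58 ± 0.39), Lipe (0.26 ± 0.37), Ces1d (0.28 ± 0.28), Pnpla3 (−0.08 ± 0.35) and G0s2 (−0.06 ± 0.70) the libraries of the tissues overlapped.

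Set in order over the 4 groups, Lipa and Mgll separated every neighbouring pair. Single pairs of groups did not overlap for many genes: 35.2% of all tested between the tissues in the cold and 66% at 30 °C. Between the sWAT groups it was 60.6%. The share of all genes that separate every neighbouring pair was not computed. Lipa was highest in BAT in the cold, then in sWAT in the cold, BAT at 30 °C and sWAT at 30 °C, and Mgll was highest in BAT in the cold, then in sWAT in the cold, sWAT at 30 °C and BAT at 30 °C, with no library out of order in either gene. Abhd5 was ordered like Mgll, except that its libraries at 30 °C overlapped between the tissues. Ces1d was highest in BAT in the cold, which overlapped with sWAT in the cold, which overlapped in turn with BAT at 30 °C, and sWAT at 30 °C lay below all of them. Pnpla3 was lowest in sWAT at 30 °C and overlapped among the other 3 groups. Every pair of neighbours in the order of Pnpla2, of G0s2 and of Lipe overlapped.

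The genes whose pattern was most like a member's were found by Pearson's r of log2 CPM over the 12 libraries, among 16364 other genes, and are given as a description, since the libraries share tissue, temperature, depth and GC slope. Nearest to Pnpla2 were Cops7a (r = 0.98), Tmem94 (0.97) and Rab11fip3 (0.95). For Abhd5 they were Gm37933, Cldn1 (both 0.99) and Olfr287 (0.98), and for G0s2 Mettl22 (0.95), Stard10 (0.94) and Dnajc19 (0.93). Lipe was followed by Gaa (0.97), the acid alpha-glucosidase of the lysosome, Bscl2 (0.96), which encodes the lipid droplet protein seipin, and Nat8l (0.95), an N-acetylaspartate synthase. Nearest to Mgll were Myo1c (0.98), 2010003K11Rik and Yars (both 0.97). Ces1d was followed by Timm9 (0.99), Foxred1 and Pmpca (both 0.98), which encode mitochondrial proteins, and Lipa by Dbt, Ryk and Atf6 (all 0.99). For Pnpla3 they were Scd1, a fatty acid desaturase, Sec61g and Fkbp3 (all 0.94). Among the members, the closest pairs were Ces1d with Lipa (0.90), Abhd5 with Mgll (0.88), Lipe with Mgll (0.83) and Abhd5 with Lipa (0.81), and G0s2 had −0.16 with Abhd5 and −0.14 with Mgll.

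Around the 9 genes, 6 lists of related genes were counted in BAT, beside the 6.82% of all genes called higher and 5.34% lower. Of 16 other intracellular lipid hydrolases tested, 2 rose and 3 fell (median log2 fold change 0.14). Ddhd2, a phospholipase with triglyceride hydrolase activity, averaged 526 ± 78 CPM in the cold and 139 ± 10 CPM at 30 °C, which is 1.98 ± 0.26 on the log2 scale (adjusted p = 0.00435), and Nceh1, a cholesteryl ester hydrolase, rose by 1.40 ± 0.32, while the phospholipases Pla2g16 (−1.83 ± 0.31) and Ddhd1 (−1.08 ± 0.26) fell. Of 14 genes of the lipid droplet coat, 2 rose and 1 fell (median 0.49). Plin2, a coat protein, averaged 1609 ± 198 CPM in the cold and 389 ± 37 CPM at 30 °C (2.11 ± 0.27, adjusted p = 0.00385), Fitm2, which acts in droplet formation, rose by 1.21 ± 0.26, and Hilpda, another inhibitor of Pnpla2, fell to 1.60 ± 0.22 CPM in the cold, against 5.66 ± 2.91 CPM at 30 °C (−1.76 ± 0.46, adjusted p = 0.0421).

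Of 31 genes of adrenergic and cyclic AMP control in BAT, 5 rose and 2 fell (median 0.37). The adenylyl cyclase Adcy3 averaged 1181 ± 274 CPM in the cold and 92.1 ± 15.6 CPM at 30 °C (3.74 ± 0.33, adjusted p = 0.00116). The natriuretic peptide receptor Npr3 rose by 2.33 ± 0.31. The antilipolytic lactate receptor Hcar1 fell (−1.61 ± 0.31). Of 16 genes that handle the released fatty acids and glycerol, 7 rose and 0 fell (median 0.96). They include the acyl-CoA synthetase Acsl5 (3.68 ± 0.39), the glycerol kinase Gk (3.35 ± 0.42), the glycerol-3-phosphate dehydrogenase Gpd1 (2.90 ± 0.35) and the fatty acid binding protein Fabp3 (1.88 ± 0.32). Of 23 lysosomal and lipophagy genes, 6 rose and 0 fell (median 0.65), with the protease genes Ctsz (3.34 ± 0.30) and Ctsd (1.32 ± 0.28) and the membrane proteins Lamp1 (1.61 ± 0.28) and Scarb2 (1.47 ± 0.28). Of 15 transcription factors known to act on lipase genes, 0 rose and 1 fell by edgeR, the immediate early gene Egr1 (−2.05 ± 0.33). Several of these calls rested on single libraries: without BAT cold library 1, 7 of the 20 genes named by the rule were lost, without cold library 2 10, without thermoneutral library 1 6 and without thermoneutral library 2 10, with Ctsd, Ddhd1, Fitm2, Hilpda, Nceh1 and Scarb2 among them each time (adjusted p 0.0509 to 0.154). Hilpda was lost as well without cold library 3 (adjusted p = 0.0648) and with limma-voom (adjusted p = 0.0825). The count of 7 for fatty acid and glycerol handling became 3 to 4 and that of 6 for the lysosome 1 to 2 in those fits, and without library 3 of both groups they were 11 and 17.

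In sWAT, where 25.1% of all genes were called higher and 24.1% lower, the same lists held 8 higher and 5 lower of 17 hydrolases (median log2 fold change 0.30), 4 and 1 of 14 droplet genes (0.50), 13 and 5 of 32 adrenergic and cyclic AMP genes (0.65), 10 and 1 of 17 genes of fatty acid and glycerol handling (1.14), 7 and 3 of 23 lysosomal genes (0.26), and 4 and 3 of 15 transcription factors (−0.37). Ddhd2 (2.83 ± 0.35) and Pnpla8 (2.60 ± 0.30), a phospholipase of the same patatin-like family as Pnpla2, rose, as did the monoglyceride hydrolase Abhd6 (1.37 ± 0.27), while the diglyceride lipase Daglb fell (−1.15 ± 0.23). Among droplet genes Plin2 (1.96 ± 0.38), Cidea (3.09 ± 0.55) and Cideb (3.65 ± 0.45) rose, and Hilpda fell (−1.36 ± 0.34). The phosphodiesterases Pde4d (2.26 ± 0.38), Pde4a (2.20 ± 0.27) and Pde8a (1.86 ± 0.21), which break down cyclic AMP, and Npr3 (2.49 ± 0.36) rose. Fabp3, which muscle also expresses, averaged 813 ± 537 CPM in the cold and 5.42 ± 4.61 CPM at 30 °C (7.21 ± 0.90), and Gk (5.66 ± 0.47), Acsl5 (4.53 ± 0.65) and the fatty acid transporter Cd36 (3.85 ± 0.41) rose. The lysosomal genes Scarb2 (2.10 ± 0.27), Lamp2 (1.68 ± 0.35) and Npc1 (1.32 ± 0.26) rose and the sialidase Neu1 fell (−1.20 ± 0.21). The nuclear receptors Pparg (2.33 ± 0.27), Ppara (1.77 ± 0.45) and Nr3c1 (1.47 ± 0.33) and the carbohydrate response factor Mlxipl (1.86 ± 0.32) rose. With GC correction the calls of Lamp2 and Nr3c1 were lost (adjusted p 0.138 to 0.757), and the adrenergic list had 16 higher and 1 lower. Some counts rested on single sWAT libraries. Without cold library 1 there were 7 droplet genes higher and 8 adrenergic genes lower, and without cold library 2 there were 3 adrenergic genes and 3 hydrolases lower. Without cold library 3 there were 3 lysosomal genes higher, and 2 adrenergic genes, 3 hydrolases and 0 transcription factors lower. Without thermoneutral library 1 or 2 there were 4 lysosomal genes higher, and 3 adrenergic genes and 1 transcription factor lower, and without thermoneutral library 2 there were 5 hydrolases higher. Without thermoneutral library 3 there were 3 hydrolases and 2 genes of fatty acid and glycerol handling lower.

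Reads that belong to neighbours could enter some of these counts, since the strand setting of the counting is not given. Antisense genes share exonic bases with Lipe (4732471J01Rik, 918 bases), Mgll (Gm26588, 167 bases) and Abhd5 (A730085K08Rik, 950 bases), and their own group means were 1.33 to 2.14 CPM, 0.569 to 4.18 CPM and at most 0.0636 CPM, far below their partners. Gm49513 shares 105 exonic bases with Pnpla3 on the same strand and was not counted in the table. Ces1d has close paralogs, of which Ces1f had 34.7 ± 4.9 CPM in BAT in the cold and 73.5 ± 18.3 CPM in BAT at 30 °C, and 145 ± 80 CPM in sWAT in the cold and 57.4 ± 16.1 CPM in sWAT at 30 °C. The counts of Ces1d are uncertain to the extent that reads of this family were split between them.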

How the data were processed

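The deposited table holds raw counts per gene symbol for 12 libraries, prepared from 1000 ng of total RNA with Illumina TruSeq protocols and read as pairs of 100 nt, per the labels' protocols. The submitters' processing notes name STAR, DESeq2 and the mm10 build, without versions. How reads were assigned to genes, and on which strand, is not given in the sources used. Every column was mapped to a sample (0 left over), and 0 of 66 pairs of columns were identical. In the cold groups, library 1 of BAT and library 2 of sWAT have column names containing Merged, which is not explained, and were treated like the rest.

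Groups were compared on these counts in R 4.3.3 with edgeR 4.0.16 (filterByExpr, TMM, robust quasi-likelihood fit), each tissue alone for cold against 30 °C and all 12 libraries for the other 3 of 5 comparisons. SE is the log2 fold change divided by the square root of F. Alternatives were RLE and upper quartile scaling, no filter, DESeq2 1.42.0, limma-voom (limma 3.58.1), loess correction on GC content (span 0.3), a replicate block, leaving out each library, leaving out library 3 of both BAT groups, and 1 fit over 12 libraries. Lengths, GC content and positions come from GENCODE M21 (GRCm38), matched by symbol.

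The members, the 6 lists of related genes and the marker lists were chosen with earlier results of these data known. From each list, up to 4 genes with the smallest adjusted p under 0.05 are named per tissue (up to 2 where none passed), and for each member the 3 genes with the highest r. A gene that this rule takes is not reported here.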

Additional observations from a re-analysis of the deposited data

Results flagged for a closer look

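The tests of the difference between the tissues' responses flagged 2 of the 8 members tested. Of all 16365 genes tested, 25.1% were called, 17.3% higher and 7.85% lower. The call of Mgll was lost in 8 of 21 alternatives and that of Pnpla3 in 11 of 21. The log2 response of Mgll to cold in sWAT minus that in BAT was −1.31, and that of Pnpla3 was 1.54. Mgll had 0.61 ± 0.34 in sWAT and 1.98 ± 0.27 in BAT, and Pnpla3 had 1.24 ± 0.41 in sWAT and −0.25 ± 0.27 in BAT (log2 fold change of cold over 30 °C ± SE from edgeR). Both differences include the sWAT libraries at 30 °C, whose composition and GC slope stood apart, and the part of these in the differences was not tested beyond the GC correction.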

How the results depend on the processing

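Over 16 alternatives in BAT, Abhd5, Mgll and Lipa were called in every one, and of 128 values of members 9 crossed into a call, 0 lost one and 0 changed sign. The count of members called, 3, was 5 with replicate block and GC correction, where 1807 genes were called higher and 1709 lower. It was 5 as well without library 3 of both groups, where 3265 genes were called higher and 3244 lower. On leaving out 1 library it was 3 to 5. The main fit called 996 genes higher and 781 lower. In sWAT 6 of 120 values lost a call, 9 gained one and 5 changed sign, and the count, 3, was 5 with block and GC correction and 2 to 4 on leaving out 1 library. Lipe turned to −0.011 under upper quartile scaling and lay between −0.17 and 0.39 without single libraries, and G0s2 between −0.10 and 1.24. For the difference of responses the count, 2, was 1 with RLE scaling, 1 without filter, 1 without library 3 of both BAT groups and 0 to 1 without single libraries, and signs turned with GC correction for Pnpla2 (0.90, and 0.89 with the block) and Lipa (−0.33, and −0.36 with the block) and, between −0.53 and 0.088 without single libraries, for Pnpla2. Between the tissues at 30 °C the count, 4, was 2 to 4 without single libraries, and signs turned with GC correction for Lipe (0.21, and 0.21 with the block) and Mgll (0.012, and 0.013 with the block). Between the tissues in the cold the count, 1, was 0 without library 3 of both BAT groups and 0 to 1 without single libraries. There G0s2 turned to 0.034 with RLE scaling, 0.034 with DESeq2 and 0.39 without library 3 of both BAT groups (−0.43 to 0.86 without single libraries), and Pnpla3 to 0.0032 with RLE scaling and 0.0032 with DESeq2 (−0.18 to 0.31). The cause was not tested.

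Over all genes, BAT had 996 higher and 781 lower, against 303 to 1378 and 146 to 1105 without single libraries, 1524 and 1282 with DESeq2, 1577 and 1514 with GC correction, 3265 and 3244 without library 3 of both groups, and 774 and 1089 with upper quartile scaling, which lowered the share of higher calls to 41.5%, against 56.05%, and the median of all genes by 0.16. For the difference of responses, 68.7% of calls were higher, and 58.4% with RLE scaling.

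Same-numbered libraries deviated from their group means with correlations of 0.31, 0.067 and 0.29 in BAT and −0.23, 0.19 and −0.31 in sWAT. Between libraries of different numbers the correlations were −0.38 to 0.24 in BAT and −0.42 to 0.46 in sWAT. The titles do not say whether same-numbered libraries are paired. The main fits therefore used no block, and the replicate block was an alternative. With the replicate block BAT had 1493 genes higher and 1306 lower, and 4 members called (Lipe added, 1.00, adjusted p = 0.0357). Block and GC correction together called G0s2 in BAT (−0.99, adjusted p = 0.0399), where it was lower in the cold in all 3 same-numbered pairs, in sWAT (1.17, adjusted p = 0.0469) and for the difference of responses (2.31, adjusted p = 0.0401). With 3 libraries in a group, Pnpla5 was too shallow for a test.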
